A study of Yarrowia lipolytica with 4 samples.

Results

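The genes of the respiratory chain and the ATP synthase of Yarrowia lipolytica, an oil-storing yeast, were compared between a strain without SUR2 and its parent. Members were the protein-coding genes whose annotation text named NADH-ubiquinone oxidoreductase, NADH dehydrogenase, complex I, succinate dehydrogenase, ubiquinol, cytochrome c, the Rieske protein, ATP synthase or alternative oxidase, without vacuolar, P450 or peroxidase in the text. These words found 76 of the 6447 protein-coding genes. For 6 of them (YALI0_B14531g, YALI0_C12210g, YALI0_D16159g, YALI0_D16929g, YALI0_E03212g and YALI0_E29447g) the text was about a protein outside the chain, such as the lactate dehydrogenase DLD1, and they are counted here and not described further. Of the other 70, the annotation placed 24 in complex I, 4 in complex II, 7 in complex III, 9 in complex IV and 10 in complex V, the ATP synthase. They are called subunits here by that text alone. The remaining members were cytochrome c, 3 alternative enzymes and 12 assembly factors. No member's span overlapped another protein-coding gene. The tables covered the nuclear chromosomes A to F, and subunits encoded on the mitochondrial chromosome were not analysed here.

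Each strain had 2 libraries of messenger RNA. The sur2 deletion strain was PO1f with the genotype ku70Δ::tc sur2Δ::LEU2, in which the sphingoid base C4-hydroxylase gene SUR2 was replaced by the leucine synthesis gene LEU2. The parent, labelled WT, was PO1f with ku70Δ::tc, so by the labels both strains carry a disruption of KU70, a gene for joining broken DNA ends. Reads of KU70 remained in every library, 52 and 14 of them in the deletion libraries and 89 and 23 in the parent libraries. PO1f requires leucine and uracil, and loss of SUR2 and gain of LEU2 cannot be told apart. Both strains were grown in YPD at 28 °C to an OD600 of 0.8. The counts came as a transcript table and a gene table, each with 1 library of each strain, and libraries are named by strain and table. Where 2 values are given for a strain, the first is its library of the transcript table and the second that of the gene table. Totals were 16698719 and 8765729 counts in the deletion libraries and 16585818 and 13972149 counts in the parent libraries. SUR2 had 0 and 0 reads in the deletion libraries and 1402 and 1319 reads in the parent libraries.

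The respiratory chain sits in the inner mitochondrial membrane. Complex I and complex II pass electrons from NADH and succinate to ubiquinone, complex III passes them on to cytochrome c, and complex IV passes them to oxygen. Complexes I, III and IV pump protons, and complex V uses the return of these protons to make ATP. Alternative NADH dehydrogenases and the alternative oxidase carry electrons past the pumps. Y. lipolytica needs oxygen to grow and has been a model for the structure of complex I, which Saccharomyces cerevisiae lacks. Gene names are those of the annotation text, most of them given by similarity to S. cerevisiae or, for complex I, to cattle and Neurospora crassa. The roles in the text below are those known for these relatives or for Y. lipolytica itself.

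By deposited TPM, respiratory genes were among the most abundant transcripts of both strains. The levels are deposited TPM values, which scale each gene's reads for its length and were scaled in each library on its own. The 70 members took 6.65% and 4.96% of all TPM in the deletion libraries and 7.56% and 7.19% in the parent libraries. Both deletion libraries were below both parent libraries, with means of 5.80 ± 1.20% in the deletion strain and 7.38 ± 0.262% in the parent (SD, n = 2 each). Of all read counts the members took less, 3.13% and 2.09% in the deletion libraries and 3.51% and 3.56% in the parent libraries. By mean TPM over the 4 libraries, 54 of the 70 members ranked in the top 10% of the protein-coding genes. The median member stood at percentile 96.3. Cytochrome c was the most abundant member by TPM at rank 32, followed by the ATP synthase subunits ATP18 at rank 39 and d at rank 50. These ranks do not follow read numbers. ATP18 had 1373 and 429 reads in the deletion libraries and 2043 and 730 in the parent libraries. Subunit d had 46370 and 13111 reads in the deletion libraries and 28186 and 22230 in the parent libraries. The subunits of complex V had mean TPM between 1096 and 4116. The 12 members classed as assembly factors, which are not counted as subunits, had a median of 101.2 TPM, and the 3 alternative enzymes ranged between 0.293 and 65.1 TPM. Not all of the assembly factors build a complex, as CYC3 attaches heme to cytochrome c.

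No member passed the test across all genes, while most of them stood lower in both deletion libraries in scaled read counts. With edgeR's quasi-likelihood test and an adjusted p of 0.05 as the threshold, 0 of the 69 members tested passed, against 75 of all 6051 genes tested (1.24%). At an unadjusted p under 0.05, 16 members were lower, where 4.03% of all genes were, and 1 was higher, where 8.4% of all genes were. DESeq2 called 2 members, CYC1 and COX15, both lower in the deletion strain, where it called 1.98% of all genes lower. In read counts scaled by library total and trimmed mean factor (CPM), 54 of the 69 members lay lower in both deletion libraries than in both parent libraries, against 20.2% of all genes tested. In 2 members both deletion libraries lay higher, against 22.1% of all genes, and in 13 the strains overlapped. In the deposited TPM 30 of the 69 lay lower in both deletion libraries, against 7.19% of all genes, 3 lay higher, against 40.6%, and 36 overlapped. Below, the counts of members lower in both deletion libraries are in CPM, unless TPM is named. The fitted log2 fold change of the deletion strain over the parent was below 0 for 64 members, against 48% of all genes. In these bulk samples, less RNA of a gene per cell and fewer cells expressing it cannot be told apart. The median fold change was -0.80 over the members and 0.03 over all genes tested. On the TPM scale (limma on log2(TPM + 1)) the members' median was -0.49 and that of all genes moved to 0.40. The members' median thus lay 0.83 below that of all genes in counts and 0.89 below it in TPM.

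**Figure D1:**
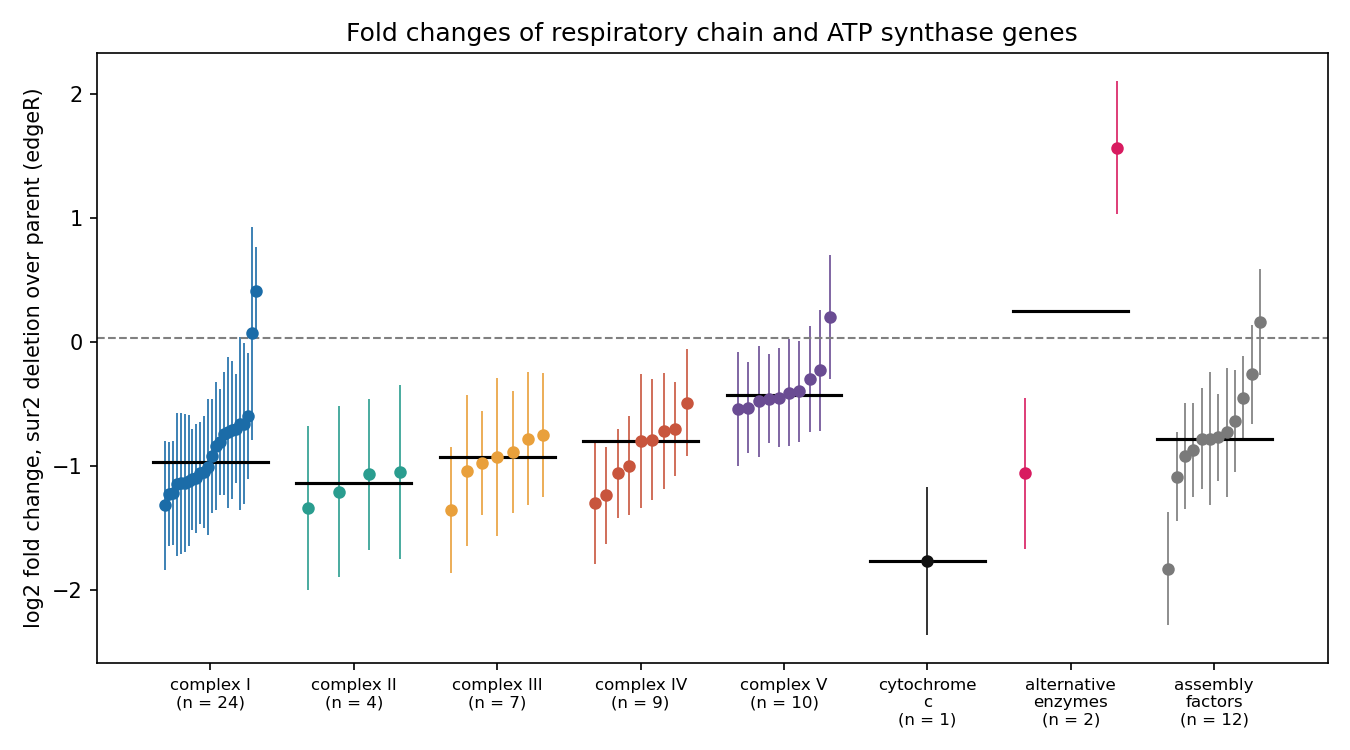
Log2 fold change of the sur2 deletion strain over the parent (edgeR, vertical axis) for the 69 tested members by class (horizontal axis). Points are genes with their standard error, black lines are class medians and the dashed line is the median of all tested genes, 0.03. The medians of complexes I to IV lie between -1.14 and -0.80, and that of complex V at -0.43, which is 0.05 on the TPM scale.

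The size of the difference depended on the table. Within the transcript table the log2 ratio of CPM, with 0.5 added to each value, was negative for 61 of the 69 members, against 50.7% of all genes, with a median of -0.34. Within the gene table it was negative for 66 members, against 47.5% of all genes, with a median of -1.49. The medians of all genes were -0.01 and 0.04 in these tables. The gene-table deletion library was also the smallest and had the largest scaling factor, 1.115, against 0.8462 for the gene-table parent library. The part of depth in the result was not tested. Without the transcript-table deletion library 28 members passed as lower, where 3.92% of all genes did, and 1 passed as higher, where 7.31% did. Without the gene-table deletion library 1 member passed as lower, where 0.819% of all genes did. Leaving out either parent library gave 0 calls among all genes by edgeR, with 10 members under an unadjusted p of 0.05 without the transcript-table parent library and 1 without that of the gene table. In each of these fits 1 strain has a single library, which is assumed to vary like the other strain's.

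**Figure D2:**
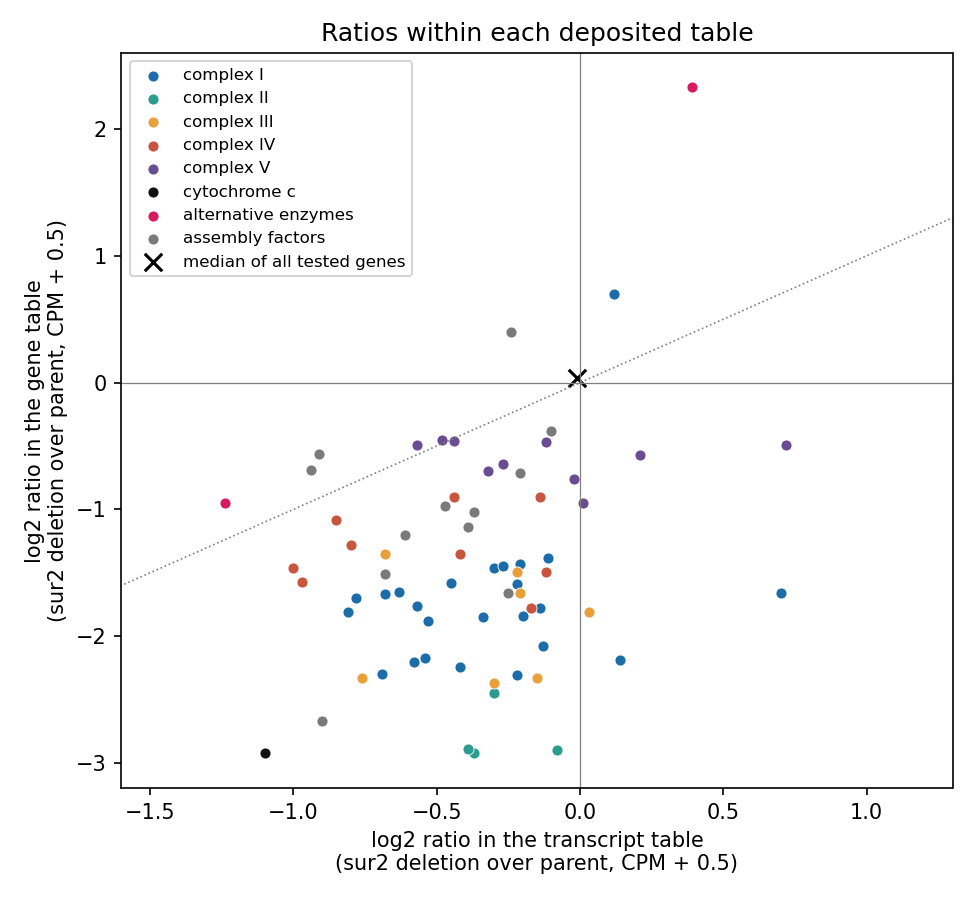
Log2 ratio of CPM (0.5 added) of the sur2 deletion library over the parent library within the transcript table (horizontal axis) and within the gene table (vertical axis), 1 point for each of the 69 tested members, coloured by class. The cross is the median of all genes and the dotted line marks equal ratios. Most members lie below the dotted line, with complex II at a gene-table median of -2.89 and complex V near -0.53.

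Properties that the choice of members did not use were set beside these values. The members' genes were short, with a median span of 874 bp against 1245 bp for all protein-coding genes, and 71.4% of them spanned less than 1000 bp, against 36.0%. Members under 1000 bp had a median log2 fold change of -0.81 and longer ones -0.78, against -0.01 and 0.05 for all tested genes of these lengths. The 54 members in the top 10% of mean TPM had a median of -0.88, and 85.2% of them lay lower in both deletion libraries. All 645 tested genes in that 10% had a median of -0.32, and 41.7% of them lay lower in both deletion libraries. Their medians were -0.07 within the transcript table and -0.67 within the gene table, against -0.36 and -1.59 for the 54 members. The 15 tested members outside the top 10% had a median of -0.73, against 0.06 for all tested genes outside it.

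Complex I, the NADH-ubiquinone oxidoreductase, is the largest complex of the chain. Of its 24 subunits, 19 were lower in both deletion libraries, against 20.2% of all genes tested. In 1 both were higher, against 22.1% of all genes, and 4 overlapped. In TPM 14 were lower, against 7.19% of all genes. The class median was -0.97, with -0.32 by the transcript table and -1.77 by the gene table. An unadjusted p under 0.05 was reached by 7 subunits, all lower, where 4.03% of all genes were, and 0 passed the adjusted test. Their summed TPM was 15782 and 7475 in the deletion libraries and 18411 and 15161 in the parent libraries. The gene-table deletion library was the lowest of the 4.

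The accessory subunit YALI0_C03201g (chromosome C, 428603 to 429906, minus strand) had 19.8 and 11.9 CPM in the deletion libraries and 34.3 and 39.6 CPM in the parent libraries. The strains did not overlap, and the log2 fold change was -1.22 ± 0.42 (SE, edgeR adjusted p = 0.273). Another accessory subunit, YALI0_C21789g (chromosome C, 2917503 to 2918198), had 61.4 and 30.0 CPM in the deletion libraries and 107.8 and 106.7 CPM in the parent libraries, with a log2 fold change of -1.23 ± 0.42 (edgeR adjusted p = 0.272). The parent libraries were close to each other, and the deletion libraries both lay below them. The subunit similar to bovine B18, YALI0_E31766g (chromosome E, 3765970 to 3766937), and the accessory subunit YALI0_F18359g (chromosome F, 2439764 to 2440319) had log2 fold changes of -1.06 ± 0.41 and -1.11 ± 0.41, with edgeR adjusted p of 0.317 and 0.301. Without the transcript-table deletion library these 4 subunits were at -1.64, -1.84, -1.63 and -1.64. Without that of the gene table they were at -0.90, -0.81, -0.66 and -0.73.

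The complex I subunits of highest mean TPM showed a difference mainly in the gene table. YALI0_B00792g (chromosome B, 113446 to 114350), an accessory subunit, had 598 and 200.7 CPM in the deletion libraries and 696 and 607 CPM in the parent libraries. Its log2 fold change was -0.71 ± 0.56 (edgeR adjusted p = 0.701). The subunit similar to bovine B22, YALI0_D07216g (chromosome D, 920063 to 920960), had 333 and 60.8 CPM in the deletion libraries and 364 and 258.5 CPM in the parent libraries. In this gene the deletion library of the transcript table lay between the parent libraries, so the strains overlapped. Its log2 fold change was -0.66 ± 0.70 with all libraries (edgeR adjusted p = 0.803), -2.36 without the transcript-table deletion library (adjusted p = 7.23e-04) and 0.10 without that of the gene table (adjusted p = 0.999). YALI0_B00792g likewise passed without the transcript-table deletion library, at -1.70 (edgeR adjusted p = 0.0315).

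Subunits of the catalytic arm were within the range of the accessory ones. NUKM and NUIM, which carry iron-sulfur clusters that lead electrons towards ubiquinone, had log2 fold changes of -1.12 ± 0.53 and -1.14 ± 0.56. The flavin-binding NADH site subunit YALI0_B20372g and its partner NUHM were at -1.14 ± 0.57 and -0.73 ± 0.61. Their TPM in the transcript-table deletion library were 222, 437, 389 and 489, against 243, 601, 497 and 420 in the parent library of that table, so NUHM was the exception that stood higher there. In the gene table the deletion library had 97.4, 172, 158 and 153 TPM for these 4 genes and the parent library 289, 461, 447.5 and 416. The gene of this class that was higher in both deletion libraries was YALI0_F27225g, which the annotation calls weakly similar to a putative complex I subunit of Caenorhabditis elegans. It had 33.2 and 48.4 TPM in the deletion libraries and 29.0 and 17.7 TPM in the parent libraries, a log2 fold change of 0.41 ± 0.36 (edgeR adjusted p = 0.747). YALI0_F32175g, annotated as the ND3 subunit but placed on nuclear chromosome F, was the least abundant at 3.48 and 0.52 TPM in the deletion libraries and 2.01 and 1.19 TPM in the parent libraries. Its log2 fold change was 0.07 ± 0.86. YALI0_F27225g and YALI0_F32175g were the 2 genes of the class with fitted values above 0, and whether they are complex I subunits was not tested.

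Without the transcript-table deletion library the median of the 24 complex I subunits was -1.74, against -0.05 for all genes tested. Without the gene-table deletion library it was -0.46, against -0.01 for all genes tested.

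Complex II, succinate dehydrogenase, is also an enzyme of the tricarboxylic acid cycle and pumps no protons. All 4 subunits were lower in both deletion libraries in CPM and 3 in TPM, against 20.2% and 7.19% of all genes tested. None was past the adjusted test or an unadjusted p of 0.05, which 1.24% and 12.4% of all genes tested were. SDH1 (YALI0_D11374g, chromosome D, 1423590 to 1425506), the flavoprotein that oxidises succinate, had 826 and 202 CPM in the deletion libraries and 1069.9 and 1529 CPM in the parent libraries. SDH2 (YALI0_D23397g, chromosome D, 3041785 to 3042591), which carries the iron-sulfur clusters, had 599.5 and 118.5 CPM in the deletion libraries and 785 and 879 CPM in the parent libraries. In both genes the gene-table deletion library stood far below the other 3.

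In the membrane anchors the gene-table deletion library was again the lowest. SDH3 (YALI0_E29667g, chromosome E, 3514064 to 3515023) had 366 and 68.0 CPM in the deletion libraries and 386 and 512 CPM in the parent libraries. SDH4 (YALI0_A14784g, chromosome A, 1507592 to 1508089) had 275 and 70.6 CPM in the deletion libraries and 339 and 388 CPM in the parent libraries. The log2 fold changes of SDH1, SDH2, SDH3 and SDH4 were -1.34 ± 0.66, -1.21 ± 0.69, -1.05 ± 0.70 and -1.07 ± 0.61, with edgeR adjusted p of 0.485, 0.56, 0.636 and 0.554. The complex as a whole showed the widest gap between tables of any complex. Its summed TPM in the deletion library was 0.884 of that in the parent library by the transcript table and 0.246 of it by the gene table. The median of the 4 subunits was -2.71 without the transcript-table deletion library and -0.44 without that of the gene table.

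**Figure D3:**
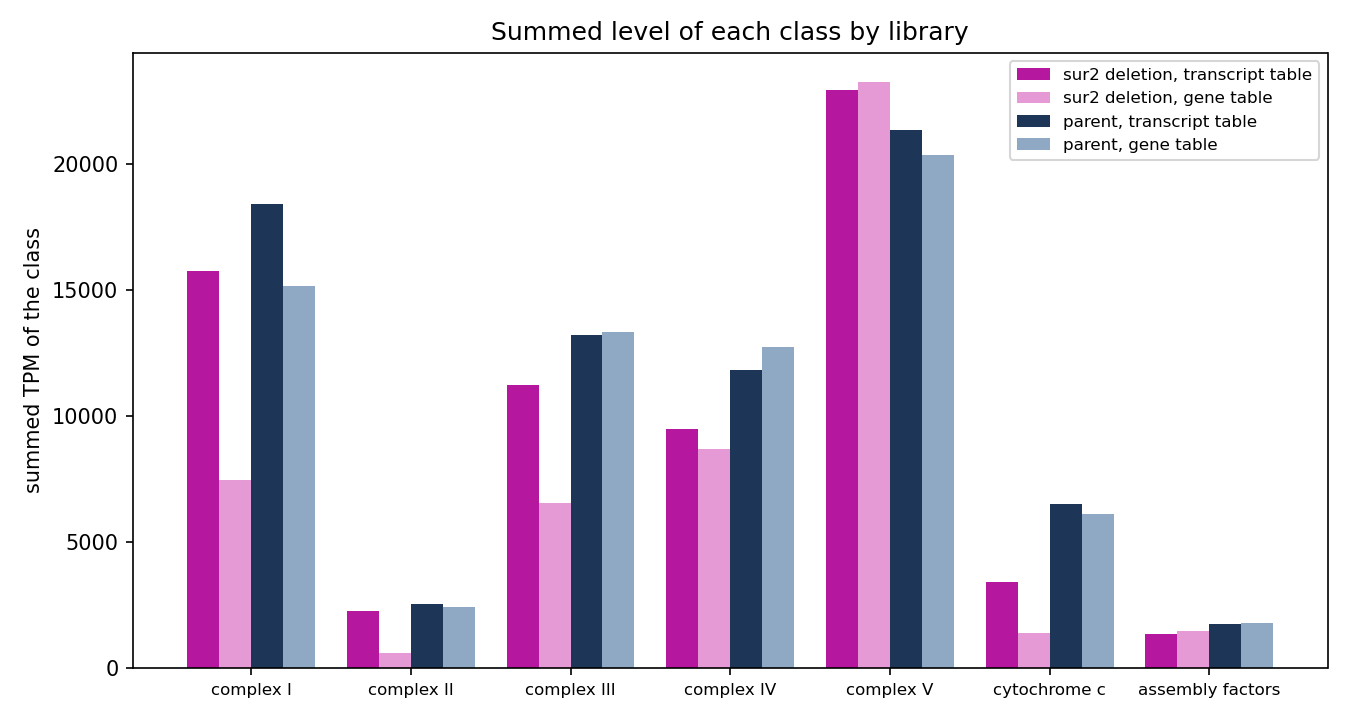
Summed TPM of the members of each class (vertical axis) in each library, with the sur2 deletion libraries left of the parent libraries. Complexes I and III have 0.493 and 0.490 of the parent's sum in the gene table and 0.857 and 0.851 in the transcript table, while complex V has 1.14 and 1.08.

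Complex III, the cytochrome bc1 complex, had 6 of 7 subunits lower in both deletion libraries in CPM and 4 of 7 in TPM. Over all genes tested these shares were 20.2% and 7.19%. The class median was -0.93, with -0.22 by the transcript table and -1.81 by the gene table. QCR9 (YALI0_B01540g, chromosome B, 245149 to 245900), a small subunit, had 75.8 and 25.7 CPM in the deletion libraries and 129 and 131 CPM in the parent libraries. Its parent libraries were close to each other and the strains did not overlap. Its log2 fold change was -1.36 ± 0.51 (edgeR adjusted p = 0.309). QCR8 (YALI0_F01771g, chromosome F, 275658 to 276250), another small subunit, had 285 and 183 CPM in the deletion libraries and 458.5 and 466 CPM in the parent libraries, at -0.98 ± 0.42 (edgeR adjusted p = 0.382). These were the 2 of 7 subunits with an unadjusted p under 0.05, where 4.03% of all genes were lower.

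The other complex III subunits differed more between tables. QCR6 (YALI0_F24673g, chromosome F, 3201580 to 3202472), the acidic hinge protein, had 432.5 and 114.7 CPM in the deletion libraries and 533 and 595.5 CPM in the parent libraries, with a log2 fold change of -1.04 ± 0.61 (edgeR adjusted p = 0.574). QCR2 (YALI0_F08613g, chromosome F, 1199863 to 1201116), a core protein, was at -0.89 ± 0.49 (edgeR adjusted p = 0.548). The Rieske iron-sulfur protein RIP1, which takes electrons from ubiquinol, had 1033 and 427 CPM in the deletion libraries and 1013 and 1503 CPM in the parent libraries, and the strains overlapped. It was the only overlapping subunit of the complex in CPM, while in TPM CYT1 and QCR7 overlapped as well. Cytochrome c1, CYT1, which hands electrons to cytochrome c, had 822.5 and 249 TPM in the deletion libraries and 871 and 746 TPM in the parent libraries. Without the transcript-table deletion library QCR9 was at -2.35, QCR6 at -2.30 and CYT1 at -2.24, and the class median was -1.56. Without that of the gene table the class median was -0.39.

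Cytochrome c, the mobile carrier between complexes III and IV, had the lowest fold change among the members that carry electrons. CYC1 (YALI0_D09273g, chromosome D, 1176675 to 1176998, plus strand) had 637.5 and 193 CPM in the deletion libraries and 1364 and 1462 CPM in the parent libraries. Its TPM was 3430 and 1381 in the deletion libraries and 6517 and 6101 in the parent libraries, so the deletion library had 0.526 of the parent's level in the transcript table and 0.226 of it in the gene table. The log2 fold change was -1.77 ± 0.60 (edgeR adjusted p = 0.267), which is 3.40-fold lower. DESeq2 called it lower (adjusted p = 0.0153), as edgeR did without the transcript-table deletion library, at -2.88 (adjusted p = 2.76e-04). Without the gene-table deletion library it was at -1.15 (edgeR adjusted p = 0.556).

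Complex IV, cytochrome c oxidase, had 9 of 9 subunits lower in both deletion libraries in CPM, against 20.2% of all genes tested. In TPM 3 of them, COX6, COX12 and COX8, were lower in both, against 7.19% of all genes, and the other 6 overlapped. Its tables were the closest among complexes I to IV. The class median was -0.80, with -0.44 by the transcript table and -1.35 by the gene table. Of the 9 subunits, 4 had an unadjusted p under 0.05, all lower, where 4.03% of all genes were. COX8 (YALI0_F04103g, chromosome F, 623537 to 624194, minus strand), a small subunit, had 53.4 and 32.5 CPM in the deletion libraries and 105 and 97.5 CPM in the parent libraries. The strains did not overlap, and the log2 fold change was -1.24 ± 0.39 (edgeR adjusted p = 0.227). COX9 (YALI0_F04114g, chromosome F, 624431 to 625325, plus strand), its neighbour, had 6.48 and 6.04 CPM in the deletion libraries and 13.5 and 17.5 CPM in the parent libraries, at -1.30 ± 0.49 (edgeR adjusted p = 0.314). The genes are transcribed away from each other, with 236 bp between their spans. Their ratios were -0.97 for COX8 and -1.0 for COX9 by the transcript table and -1.57 and -1.46 by the gene table. COX12 and COX7, which are not neighbours, were at -0.80 and -0.85 by the transcript table and -1.28 and -1.08 by the gene table. Whether neighbouring genes change together was not tested.

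COX12 (YALI0_E16709g, chromosome E, 1977661 to 1978139), a subunit on the intermembrane side, had 117 and 109.6 CPM in the deletion libraries and 204 and 268 CPM in the parent libraries. COX7 (YALI0_E12628g, chromosome E, 1536163 to 1536492) had 14.4 and 15.6 CPM in the deletion libraries and 26.4 and 33.4 CPM in the parent libraries. In both genes the deletion libraries were nearly equal in CPM, so the gap to the parent in CPM did not rest on 1 deletion library. In TPM COX7 had 702.8 and 1265.1 in the deletion libraries and 986.0 and 1594.1 in the parent libraries, and the strains overlapped. COX12 had 1385.5 and 1863.6 TPM in the deletion libraries and 2021.7 and 2632.5 TPM in the parent libraries, without overlap. Their log2 fold changes were -1.06 ± 0.36 and -1.0 ± 0.40, with edgeR adjusted p of 0.267 and 0.355. COX4 (YALI0_E19723g, chromosome E, 2354436 to 2354924), a zinc-binding subunit and after COX12 the most abundant of complex IV by mean TPM, was at -0.79 ± 0.49 (edgeR adjusted p = 0.6). Of the pair of genes annotated by similarity to COX5A, YALI0_F03567g had 1523 and 696 TPM in the deletion libraries and 1593 and 1409 TPM in the parent libraries, and YALI0_F26675g had 247 and 365 TPM in the deletion libraries and 297 and 398 TPM in the parent libraries. Without the transcript-table deletion library COX8 was at -1.64 and YALI0_F03567g at -1.70, and the class median was -1.34. Without that of the gene table the class median was -0.78.

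**Figure D4:**
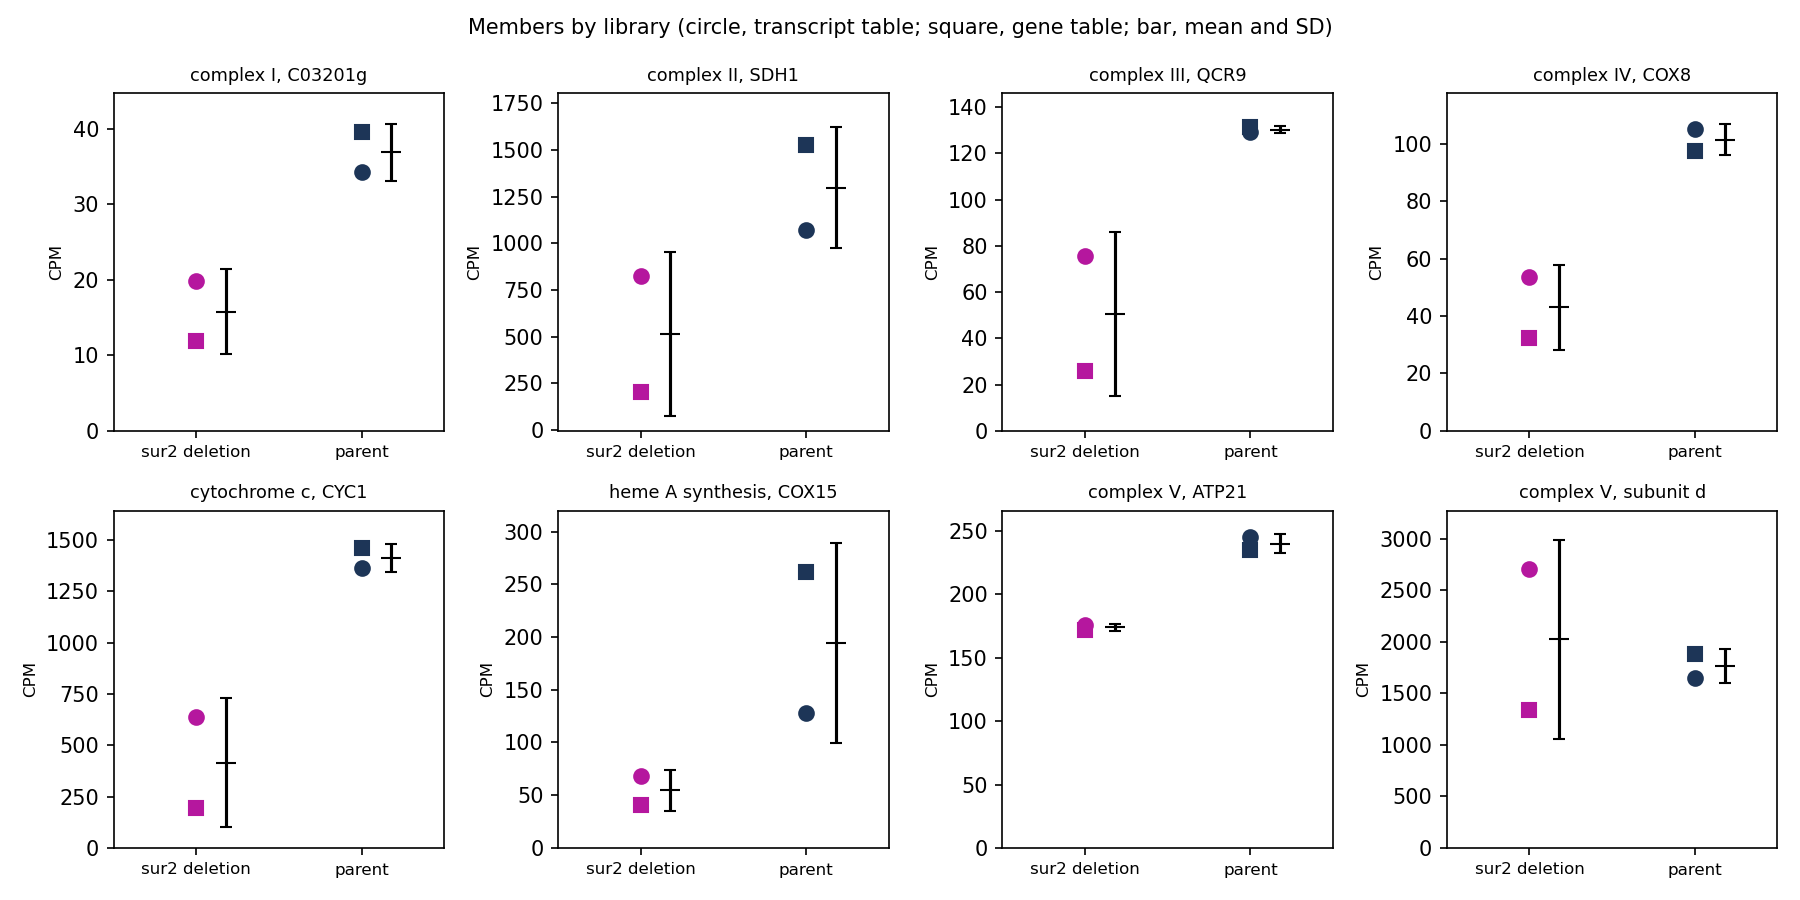
CPM (vertical axes) of 8 members in each library, with the sur2 deletion strain left of the parent. Circles are the transcript table, squares the gene table, and the bar is the mean with its SD (n = 2). CYC1, COX8 and QCR9 have both deletion points well below close parent points, SDH1 has a wide gap between its deletion points, and ATP synthase subunit d overlaps.

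Complex V, the ATP synthase, had the median nearest to that of all genes among the 5 complexes. Its median log2 fold change was -0.43 in counts and 0.05 on the TPM scale, which lay 0.46 and 0.35 below the median of all genes on the same scale. All 10 subunits ranked in the top 10% of mean TPM. The tested genes of that 10% had a median of -0.32 in counts, and 41.7% of them lay lower in both deletion libraries in CPM. Of its 10 subunits, 6 were lower in both deletion libraries and 4 overlapped, while in TPM 0 were lower, 1 was higher and 9 overlapped. Over all genes tested 20.2% were lower in CPM, and in TPM 7.19% were lower and 40.6% higher. None of them, 0 of 10, reached an unadjusted p of 0.05, where 12.4% of all genes tested did. The summed TPM was 22964 and 23258 in the deletion libraries and 21344 and 20377 in the parent libraries, so by this measure both deletion libraries were higher. Within the tables the median ratio of CPM was -0.20 by the transcript table and -0.53 by the gene table. No test of complex V against the other complexes was made.

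ATP17 (YALI0_D11814g, chromosome D, 1463572 to 1464519), subunit f of the membrane part, had 148 and 161 CPM in the deletion libraries and 185 and 263 CPM in the parent libraries. Its log2 fold change was -0.53 ± 0.37 (edgeR adjusted p = 0.648) and -0.03 on the TPM scale. ATP21 (YALI0_E32164g, chromosome E, 3818673 to 3818945), subunit e, which helps synthases pair in the membrane, had 176 and 172 CPM in the deletion libraries and 245 and 235 CPM in the parent libraries. Both strains were tight here and did not overlap, with a log2 fold change of -0.46 ± 0.36 (edgeR adjusted p = 0.69), which was 0.04 on the TPM scale. ATP16 (YALI0_D22022g, chromosome D, 2798570 to 2798983), the delta subunit of the rotating stalk, was at -0.45 ± 0.40 (edgeR adjusted p = 0.747) and at -0.01 on the TPM scale. ATP18 (YALI0_D17490g, chromosome D, 2151795 to 2152647), subunit i/j, had 80.2 and 43.9 CPM in the deletion libraries and 119 and 61.7 CPM in the parent libraries. The strains overlapped in ATP18, and its log2 fold change of -0.54 ± 0.46 (edgeR adjusted p = 0.732) was 0.05 on the TPM scale.

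Subunit d, YALI0_B06831g (chromosome B, 910735 to 911904), part of the stator that holds the catalytic head, was the complex V member with a fitted value above 0. It had 2708 and 1342 CPM in the deletion libraries and 1644 and 1880 CPM in the parent libraries. The transcript-table deletion library was the highest and that of the gene table the lowest of the 4, and the log2 fold change was 0.20 ± 0.50 (edgeR adjusted p = 0.931), or -0.40 without the transcript-table deletion library. The beta subunit YALI0_B03982g, which holds the catalytic sites, had 2564 and 2895 TPM in the deletion libraries and 2127 and 2571 TPM in the parent libraries, with a log2 fold change of -0.23 ± 0.49 in counts (edgeR adjusted p = 0.92).

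The tested alternative enzymes had fold changes of opposite sign, and neither passed. YALI0_E05599g (chromosome E, 621769 to 623769), similar to the NDH64 NADH dehydrogenase of N. crassa, had 131 and 403 CPM in the deletion libraries and 99.9 and 79.8 CPM in the parent libraries. Both deletion libraries were higher, with the gene-table one highest, and the log2 fold change was 1.57 ± 0.54 (edgeR adjusted p = 0.272). It was 2.16 without the transcript-table deletion library (edgeR adjusted p = 1.68e-04) and 0.54 without that of the gene table (adjusted p = 0.9). The alternative oxidase gene YALI0_D09933g (chromosome D, 1255379 to 1256428) had 7.65 and 21.6 CPM in the deletion libraries and 18.7 and 42.2 CPM in the parent libraries. In each table the deletion library was lower, while the strains overlapped across tables, and the log2 fold change was -1.06 ± 0.61 (edgeR adjusted p = 0.562). It passed without the gene-table deletion library, at -1.99 (edgeR adjusted p = 0.0295). The other alternative oxidase gene, YALI0_E00814g (chromosome E, 82867 to 83928), had 4 and 10 reads in the deletion libraries and 2 and 1 reads in the parent libraries, and the filter on low counts left it untested.

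Assembly factors as a class were at a median of -0.78 in counts and -0.33 on the TPM scale. Of the 12, 9 were lower in both deletion libraries in CPM and 5 in TPM, against 20.2% and 7.19% of all genes tested. COX15 (YALI0_F24651g, chromosome F, 3199419 to 3200966), which makes the heme A of cytochrome c oxidase, had the smallest p of all members. It had 68.3 and 40.7 CPM in the deletion libraries and 128 and 261.5 CPM in the parent libraries, a log2 fold change of -1.83 ± 0.46 (edgeR adjusted p = 0.136). The parent libraries differed by more than the deletion libraries did, and the strains did not overlap. DESeq2 called COX15 lower (adjusted p = 0.0046). By edgeR it was at -2.26 without the transcript-table deletion library and -1.51 without that of the gene table. It was at -2.31 without the transcript-table parent library and -1.23 without that of the gene table. COX15 lies on the same strand as QCR6, with 613 bp between the spans. Their ratios were -0.90 for COX15 and -0.30 for QCR6 by the transcript table and -2.67 and -2.37 by the gene table.

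COX14 (YALI0_F06259g, chromosome F, 931602 to 932556), which in S. cerevisiae regulates synthesis of the core oxidase subunit Cox1, had 78.1 and 57.1 CPM in the deletion libraries and 125.5 and 163 CPM in the parent libraries, at -1.09 ± 0.36 (edgeR adjusted p = 0.25). PET100 (YALI0_D24992g, chromosome D, 3330171 to 3330554), an oxidase assembly protein, had 64.9 and 40.4 CPM in the deletion libraries and 99.0 and 93.5 CPM in the parent libraries, at -0.87 ± 0.38 (edgeR adjusted p = 0.402). The strains did not overlap in either gene. The enzymes that attach heme to the c-type cytochromes, CYT2 (YALI0_E06215g, chromosome E, 717233 to 718033) for cytochrome c1 and CYC3 (YALI0_C12918g) for cytochrome c, were at -0.77 ± 0.35 and -0.92 ± 0.43, with edgeR adjusted p of 0.43 and 0.459. The factor with a fitted value above 0 was CIA30 (YALI0_D14564g), a complex I assembly protein, with 106 and 269 TPM in the deletion libraries and 118 and 121 TPM in the parent libraries.

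The wording of the rule missed 11 genes whose annotation places them in the chain or the synthase, and they were added for comparison after the tables had been opened. None of them passed edgeR's test or DESeq2's, and 0 had an unadjusted p under 0.05, against 12.4% of all genes tested. Their median log2 fold change was -0.91. The complex I subunits NUAM, NUCM and NUGM were at -1.09 ± 0.63, -0.91 ± 0.58 and -1.09 ± 0.57. The ATP synthase subunits ATP1, ATP3 and ATP14, of the catalytic head and its stalks, were at -0.28 ± 0.49, -0.24 ± 0.45 and -0.67 ± 0.38. The alternative NADH dehydrogenase NDH2 (YALI0_F25135g), which oxidises NADH without pumping, had 502 and 947 CPM in the deletion libraries and 423 and 608 CPM in the parent libraries. INH1 (YALI0_C05621g), the inhibitor that stops the synthase from running backwards, had 41.3 and 133 CPM in the deletion libraries and 68.9 and 62.0 CPM in the parent libraries. The strains overlapped in both genes, with log2 fold changes of 0.49 ± 0.48 for NDH2 and 0.41 ± 0.53 for INH1 (edgeR adjusted p of 0.782 and 0.85). With these 11 the members' median was -0.81.

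Genes that supply the chain were taken from lists made from annotation words. Of the carriers that exchange ADP, ATP and phosphate across the inner membrane, 2 of 4 tested passed as higher, where 0.992% of all genes tested did, and 0 as lower. The ADP/ATP carrier gene YALI0_D08228g (chromosome D, 1052418 to 1053335) had 249 and 1790.1 CPM in the deletion libraries and 25.7 and 30.8 CPM in the parent libraries, a log2 fold change of 5.17 ± 0.93 (edgeR adjusted p = 0.042). YALI0_C05753g (chromosome C, 742922 to 743932), similar to a mitochondrial phosphate carrier, had 85.1 and 804 CPM in the deletion libraries and 9.62 and 7.44 CPM in the parent libraries, at 5.70 ± 1.02 (edgeR adjusted p = 0.042). In both genes the strains were far apart and the gene-table deletion library was the highest. The most abundant ADP/ATP carrier gene, YALI0_A10659g (chromosome A, 1109161 to 1110069), had 7550 and 4448 CPM in the deletion libraries and 7640 and 14953 CPM in the parent libraries, at -0.91 ± 0.56 (edgeR adjusted p = 0.596). The phosphate carrier-like gene YALI0_F14223g was at -0.69 ± 0.50 (edgeR adjusted p = 0.669). A further ADP/ATP carrier gene, YALI0_F19712g, whose annotation names the same protein record as that of YALI0_D08228g, had 2 and 8 reads in the deletion libraries and 1 and 3 reads in the parent libraries, and how reads were shared between such genes is not given in the sources used here. Without the gene-table deletion library the fold changes of YALI0_D08228g and YALI0_C05753g were 3.14 and 3.31, and they were 5.98 and 6.55 without that of the transcript table. They were 5.01 and 5.86 without the transcript-table parent library and 5.31 and 5.54 without that of the gene table. The fits without a parent library called 0 of all genes, so they cannot show whether these genes pass.

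**Figure D5:**
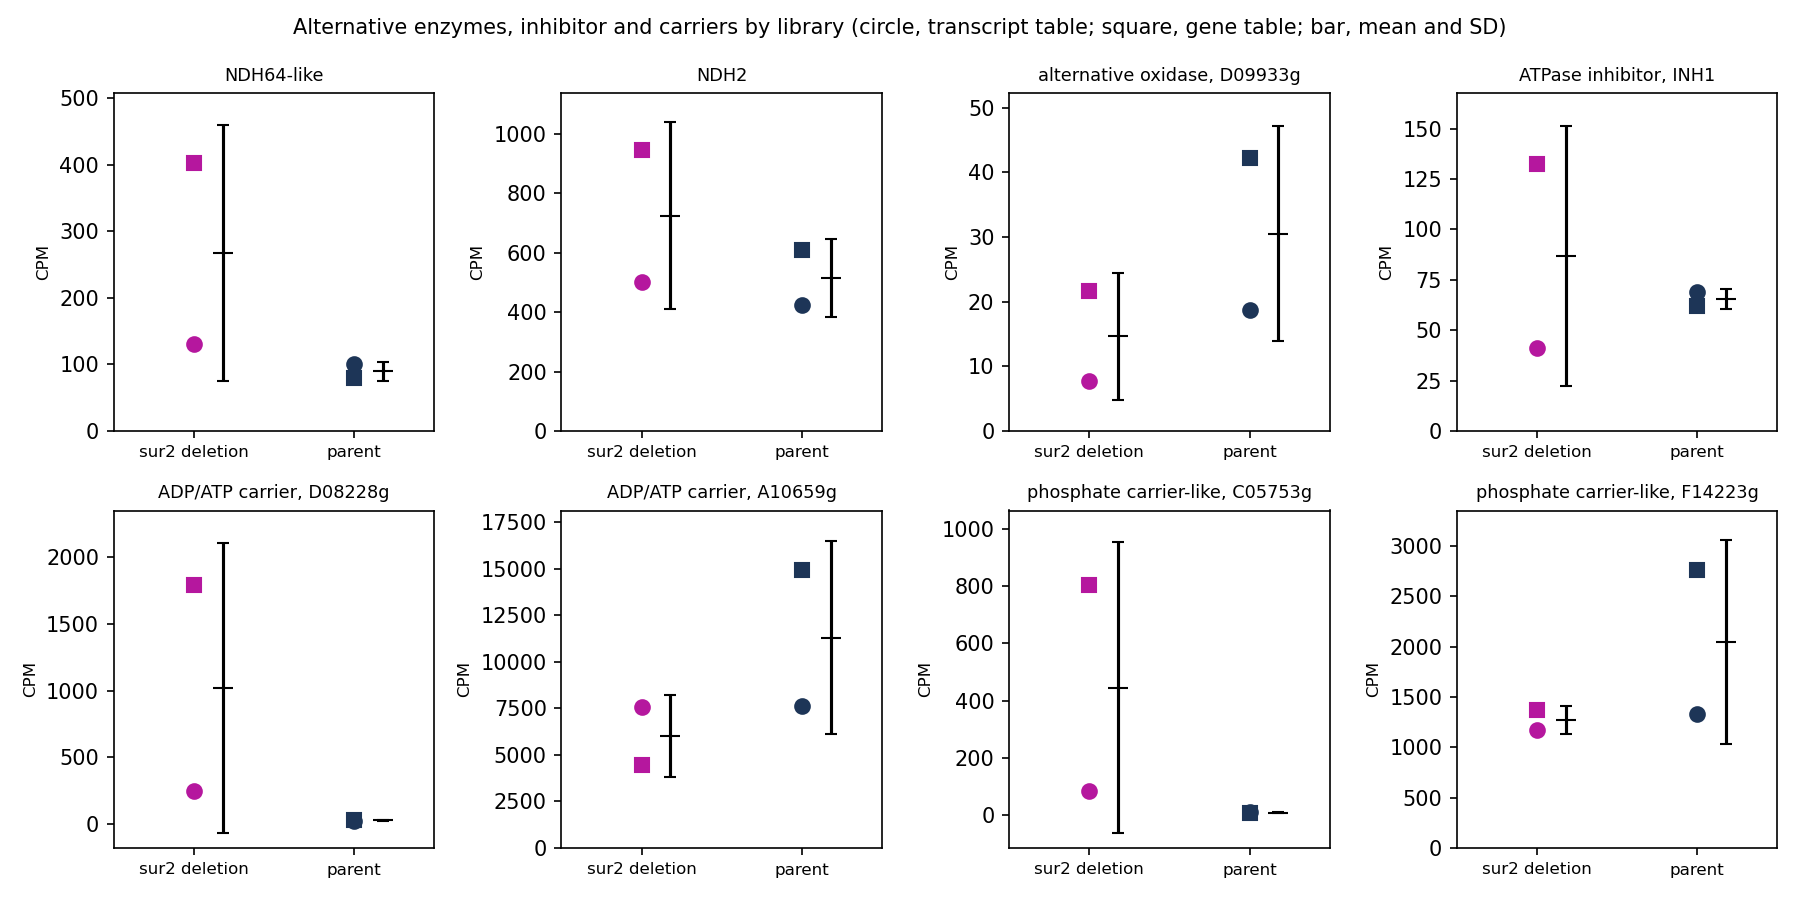
CPM (vertical axes) of alternative enzymes, the ATPase inhibitor and carriers in each library, with the sur2 deletion strain left of the parent. Circles are the transcript table, squares the gene table, and the bar is the mean with its SD (n = 2). YALI0_D08228g and YALI0_C05753g are higher in both deletion libraries, while YALI0_A10659g, at 7550 and 4448 CPM against 7640 and 14953 CPM, is not.

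No gene passed edgeR's test in the other 5 lists, where 8 of 48 tested had an unadjusted p under 0.05, against 12.4% of all genes tested, and DESeq2 called 1, HEM13. The 16 assembly factors that the rule's words had not matched all had fitted values below 0, against 48% of all genes tested. Their median was -0.65, and 13 of them lay lower in both deletion libraries, against 20.2% of all genes. COX20 (YALI0_C09350g), which guards the oxidase subunit Cox2, had 33.9 and 33.9 CPM in the deletion libraries and 68.5 and 74.3 CPM in the parent libraries, at -1.08 ± 0.35 (edgeR adjusted p = 0.243). COX19 (YALI0_E34540g), a factor for the copper centres of the oxidase in S. cerevisiae, was at -1.27 ± 0.47 (edgeR adjusted p = 0.301). The 11 genes matched by names of tricarboxylic acid cycle enzymes had a median of -0.32. The 2 of smallest p were IDP2 (YALI0_F04095g), matched by the words isocitrate dehydrogenase, at -1.06 ± 0.43, and the 2-oxoglutarate dehydrogenase component KGD2 (YALI0_E16929g) at -0.97 ± 0.43. The isocitrate dehydrogenase genes IDH1 (YALI0_E05137g), annotated as NAD+-dependent and mitochondrial, and IDH2 (YALI0_D06303g) were at -0.09 ± 0.46 and 0.03 ± 0.47. The 6 coenzyme Q synthesis genes had a median of -0.30, the 7 iron-sulfur cluster genes 0.05 and the 8 heme synthesis genes 0.00 to 2 decimals.

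Within the heme list, HEM13 (YALI0_E29975g, chromosome E, 3545533 to 3546897), annotated as weakly similar to coproporphyrinogen oxidase, had 117 and 119 CPM in the deletion libraries and 320.3 and 534 CPM in the parent libraries. The deletion libraries were nearly equal and lay below both parent libraries, with a log2 fold change of -1.86 ± 0.43 (edgeR adjusted p = 0.102). DESeq2 called it lower (adjusted p = 5.37e-04), and it passed edgeR's test without either deletion library, at -1.85 without that of the transcript table (adjusted p = 0.013) and -1.87 without that of the gene table (adjusted p = 0.0278). It was at -2.22 without the transcript-table parent library and -1.44 without that of the gene table. These fits called 0 of all genes, the deleted SUR2 included, so they cannot show whether HEM13 passes. The gene of the list with the next smallest p, YALI0_E17545g, is annotated as weakly similar to HEM1, the first enzyme of the pathway. Its mean TPM of 3.09 put it at percentile 14.3 of the protein-coding genes. It did not pass and had 50 and 104 reads in the deletion libraries and 28 and 40 reads in the parent libraries (log2 fold change 1.43 ± 0.80, edgeR adjusted p = 0.546). The iron-sulfur scaffold ISU1 (YALI0_B04928g) was at 0.90 ± 0.37 and the cluster protein ISA1 (YALI0_E19206g) at -1.16 ± 0.49, with edgeR adjusted p of 0.368 and 0.378. Of the coenzyme Q genes, COQ4 (YALI0_F27247g) was at -0.56 ± 0.37 and the side-chain enzyme COQ1 (YALI0_C18755g) at -0.46 ± 0.37.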

How the data were processed

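Messenger RNA of 4 libraries, 2 of the sur2 deletion strain and 2 of its parent, was analysed from deposited tables. Read counts were deposited by the authors as whole numbers per transcript or per gene, per the file headers. TPM values, also deposited by the authors, are scaled for length and library size, per the file headers, and each library was scaled on its own. A further 4 columns of deposited values per library were not used. No source used here gives the aligner, the read counter, whether it used strand, or the genome build, so reads of near-identical or antisense genes may be shared in an unknown way. Coordinates are those of the deposited tables. The labels do not say that the replicates were separate cultures, and the p-values may therefore reflect technical spread alone.

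The tables were joined by gene identifier into 8381 features, of which 6447 are protein-coding, and 1 feature is not used here. The column names give the strain but no replicate number. For testing, edgeR 4.0.16 was run in R 4.3.3. Its filterByExpr kept 6051 genes, trimmed mean (TMM) factors were 0.8462 to 1.115, and strain was the only term of the quasi-likelihood test. P-values are two-sided and were adjusted by the Benjamini-Hochberg method over all tested genes with a threshold of 0.05. Each standard error was computed from the fold change and its F statistic. The common dispersion was 0.1424. CPM are counts scaled by the library total times its TMM factor. A count of 0 allows 3 counts, or 0.1797 to 0.3422 CPM, and such floors cover counting error only. The steps were tested on simulated data with a dispersion of 0.05, below the 0.1424 of the data, and with fold changes larger than those of the members. That simulation therefore cannot show how often changes of the members' size would be found here.

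The deviations of same-table libraries from their strain means correlated at 0.24 across 6051 genes, which are not independent, over 2 pairs. The labels do not say what a replicate number marks. Alternatives were DESeq2 1.42.0, other scaling factors, no filter on low counts, the table as a term, limma 3.58.1 on TPM with pseudocounts of 1 and 0.1 (a TPM of at least 1 in 2 libraries) or without that filter, and leaving out each library. Members, classes, lists and tests were chosen with earlier results of these data known, and no set test was made. The text names the members past the threshold, in each class the 4 of smallest p and the 2 of highest mean TPM, every member of complex II, cytochrome c and the alternative enzymes, and in each supply list the genes past the threshold or otherwise the 2 of smallest p. Other members named, IDH1 and IDH2, and the carrier genes that did not pass, were chosen after their values were seen.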

Additional observations from a re-analysis of the deposited data

How the results depend on the processing

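Leaving out a library moved the counts most. Over all genes 75 passed with every library and between 0 and 685 without 1 of them. Among the members 0 passed with every library and between 0 and 29 without 1. The median of the alternative enzymes, 0.25 over 2 genes, ranged between -0.72 and 1.70, the log2 fold change of YALI0_D07216g between -2.36 and 0.10, and that of YALI0_B06831g between -0.40 and 0.62. DESeq2 called 387 genes and 2 members, and limma on TPM called 219 genes with a pseudocount of 1, 222 with 0.1 and 0 members with either. With the replicate block, the deposited table as a paired term, 145 genes and 0 members passed and the members' median was -0.96. This block changed no other call among the named members. The columns carry no replicate number, so the pairing is that of the tables. Complex V's median of -0.43 was 0.05 under all 3 limma settings on TPM, as ATP18's value was 0.05 and ATP21's 0.04, and the assembly factors' median of -0.78 was -0.33, -0.34 and -0.33. On that scale the median of all genes was also higher, by the values given in the report. The alternative enzymes' median was 1.56 with DESeq2 and 1.57 without a filter, since YALI0_E00814g then entered it. The medians of complexes I to IV, of cytochrome c and of all members kept their sign under every setting run. The share of the members, deletion over parent, was 0.786 in TPM and 0.737 in counts. With the literal 76 genes the members' median was -0.79. In TPM 30 members, against 54 in CPM, were lower in both deletion libraries, a comparison added after seeing the data. The part of counting depth and of the tables in these results was not tested.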
